A study of Mus musculus with 15 samples.

Results

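The 10 genes described here encode proteins that nucleate, anchor and bundle the microtubules of the meiotic spindle: Tacc3, Ckap5, Aurka, Tpx2, Numa1, Pcnt, Cdk5rap2, Tubg1, Plk1 and Prc1. They were chosen by function, as members of the machinery that organizes spindle poles without centrosomes. Their members on the array were the probe sets, sets of short oligonucleotides for 1 transcript, whose platform annotation held exactly 1 of these symbols. They had 24 probe sets among 45037 that were not controls, of which 18 passed a filter on low signal, among 22519 tested. Every gene kept at least 1 tested probe set, and Tpx2 had the most, with 4.

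Mouse oocytes lose their centrioles during growth, so the spindle of the first and second meiotic divisions is built from many acentriolar microtubule organizing centres. These centres contain pericentrin (the Pcnt product), CDK5RAP2 and gamma-tubulin (the Tubg1 product), which caps and nucleates microtubules. The kinases PLK1 and AURKA act on the centres, and TPX2 is released near chromosomes by the GTPase Ran and activates AURKA. TACC3 and the microtubule polymerase chTOG (the Ckap5 product) act together on spindle microtubules, NUMA1 gathers microtubule ends at the poles, and PRC1 crosslinks antiparallel microtubules in the spindle midzone. A fully grown oocyte makes little new RNA until after fertilization, and its stored messages are translated or degraded on a schedule that involves their poly(A) tails.

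The samples were 15 pools of 150 oocytes from B6D2F1 females, a hybrid mouse strain, primed with pregnant mare serum gonadotropin (PMSG) for 48 h. MII oocytes, arrested at metaphase of the second meiotic division, had been matured in vitro for 16 h from females at day 20 (d20, n = 3), day 26 (d26, n = 3) and 7 to 8 weeks (adult, n = 2). In vivo matured MII oocytes, collected after stimulation with human chorionic gonadotropin, came from d26 (n = 2) and adult (n = 3) females. Germinal vesicle (GV) oocytes, still arrested in the first meiotic prophase, came from adults only (n = 2), so MII oocytes of d20 and d26 females had no GV oocytes of their own age. All groups shared the strain, the PMSG priming and 1% hyaluronidase to strip cumulus cells. Whether each pool had its own animals is not stated, so the p-values cover only the spread among these arrays, part of which may be technical.

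Values are log2 of the deposited intensity after quantile normalization over the 15 arrays, and each difference is a difference of mean log2 values with its standard error (SE). Calls are probe sets with a Benjamini-Hochberg adjusted p below 0.05 in a limma fit to all tested probe sets. Levels are set side by side only within a probe set. In groups of 2, leaving out 1 array leaves 1, whose spread is then assumed to be that of the other groups. Signal was low on 4 arrays, called dim here, with 2615 to 3042 probe sets above an intensity of 200 before normalization, against 4882 to 9819 on the rest. They were d26 in vitro replicates 2 and 3, adult in vivo replicate 1 and adult in vitro replicate 2, and both GV arrays were the brightest. Of the oocyte markers, 10 of 11 were measured, and each was above the filter level of 3.07 in every array. Their summed level was 26888 to 28792 in adult in vivo and 22163 to 29411 in adult in vitro MII arrays, against 62445 to 74734 in GV arrays. The markers differed, and Zp1, Zp2, Zp3, Nlrp5 and Ooep fell furthest. Zp2 averaged 8.58 in adult in vivo and 8.21 in adult in vitro oocytes, against 13.01 in GV oocytes. Bmp15 averaged 11.26 and 11.68 in the same MII groups, against 11.31 in GV oocytes, and Dppa3 12.11 and 12.73, against 12.19. The summed level of 9 measured cumulus and granulosa cell markers was 190 to 344 in adult in vivo MII arrays and 252 to 279 in adult in vitro MII arrays, against 137 to 149 in GV arrays. Ptgs2 averaged 5.85 in adult in vivo and 5.57 in adult in vitro oocytes, against 3.72 in GV oocytes. Fshr went the other way, at 2.86 and 3.50, against 4.28, as did Cyp11a1, at 3.74 and 3.67, against 5.29. Ptx3 did so in vitro only, at 2.49, against 3.52 in GV oocytes. The summed level of 6 leukocyte markers was 102 to 429 in adult in vivo arrays and 44.5 to 86.3 in adult in vitro arrays, against 30.3 to 32.0 in GV arrays. The summed level of 5 oviduct epithelium markers was 2798 to 5280 in adult in vivo and 3381 to 3413 in adult in vitro arrays, against 1377 to 1712 in GV arrays. Most of that sum came from Cdh1, which averaged 11.6 in adult in vivo and 11.7 in adult in vitro oocytes, against 10.5 in GV oocytes. Ovgp1, an oviduct secretory glycoprotein, averaged 7.36 in adult in vivo and 4.18 in adult in vitro oocytes, against 3.73 in GV oocytes. Epcam and Krt18 were also higher in adult in vivo than in GV oocytes. Krt8 went the other way, at 4.38 in adult in vivo and 3.06 in adult in vitro oocytes, against 5.63 in GV oocytes. The part of these markers in the results was not tested. RNA was captured through its poly(A) tail, so a shorter tail and less transcript cannot be told apart, nor can less RNA per oocyte and fewer oocytes in a pool.

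Among the 10 genes, Tacc3 and Pcnt were lower in MII than in GV oocytes of adults, and none of the 18 tested probe sets was higher. In adult in vivo MII against GV oocytes, 3 of the 18 passed, all lower, where 11.1% of all tested probe sets were called lower and 15.7% higher (26.8% in all). In adult in vitro MII against GV oocytes, 4 of the 18 passed, all lower, where 11.7% of all tested probe sets were called lower and 16% higher (27.7% in all). One of the calls in each comparison, Tacc3 1455834_x_at, entered the test only through the GV arrays and lends the counts no support, and without it 2 of 17 were called in vivo and 3 of 17 in vitro. The median difference of the 18 was -0.41 in vivo and -1.12 in vitro, beside 0.24 and 0.13 over all tested probe sets. Over the 17 without Tacc3 1455834_x_at it was -0.36 and -0.82. The counts in the rest of this paragraph keep that probe set among the 18. Of the 18, 4 had every adult in vivo MII array below both GV arrays, where 22.9% of all tested probe sets did, and 9 had both adult in vitro arrays below them, where 29.8% did. Both comparisons use the same 2 GV arrays. At an unadjusted p below 0.05 the in vivo comparison had 4 lower and 1 higher, where the shares over all tested probe sets were 14.8% and 21.3%. The in vitro comparison had 5 lower and 0 higher at that level, where the shares were 16.3% and 20.9%.

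**Figure D1:**
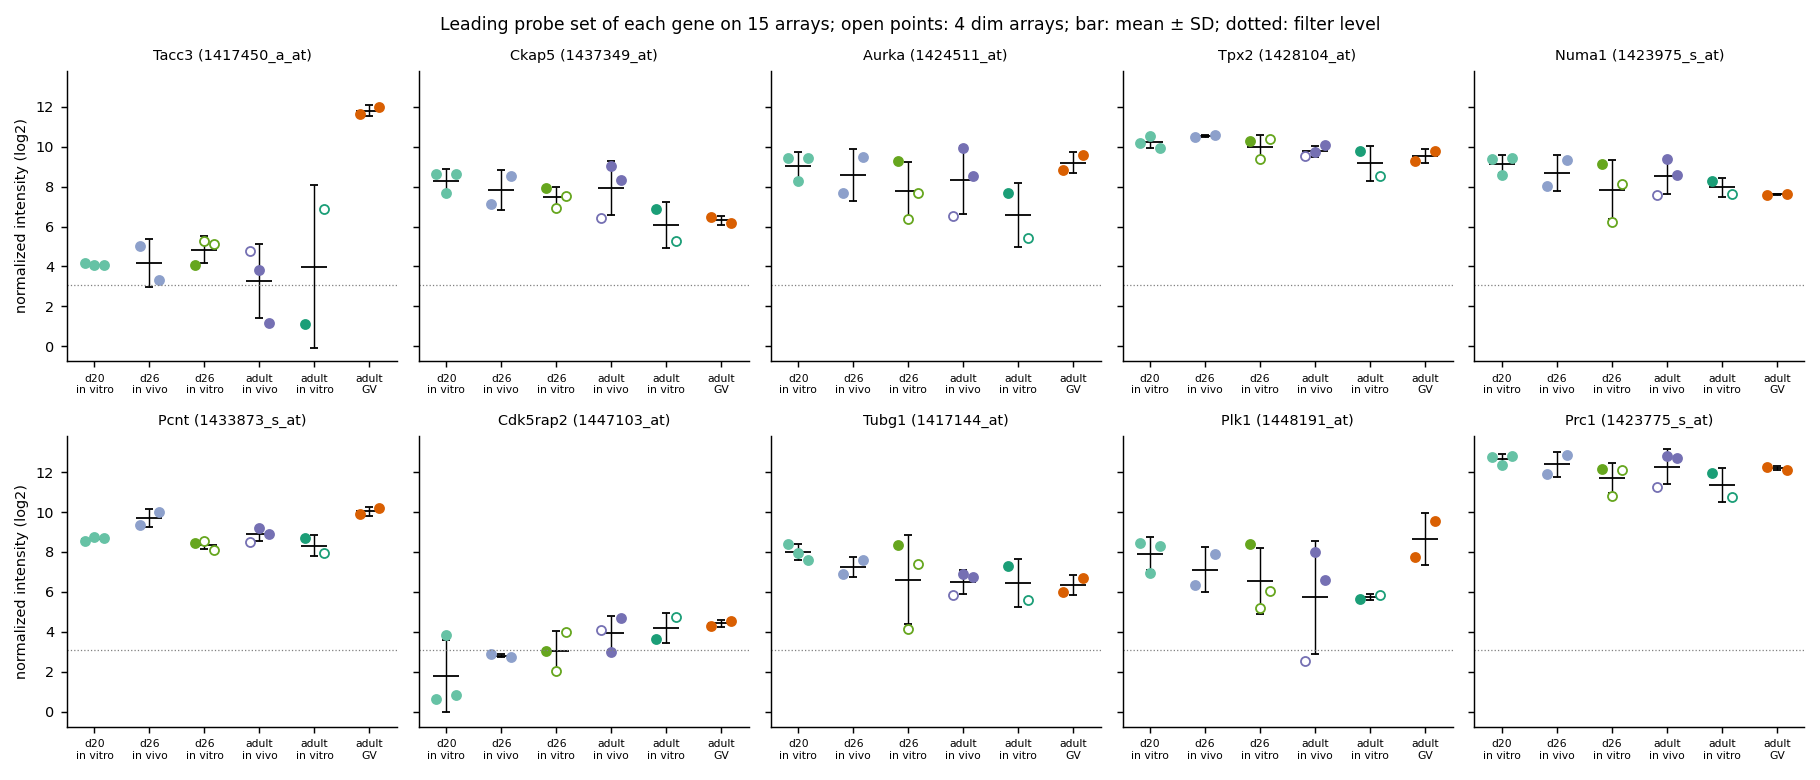
Normalized intensity (log2) of the leading probe set, the one with the highest mean, of each of the 10 genes in the 15 arrays. Points are arrays grouped by age and maturation, open points are the 4 dim arrays, bars are the mean ± SD, and the dotted line is the filter level of 3.07. Tacc3 lies between 1.10 and 6.88 in the 13 MII arrays, below 11.63 and 12.00 in the GV arrays.

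Tacc3, the transforming acidic coiled-coil protein that loads chTOG onto spindle microtubules, had the lowest MII values relative to GV of the 10 genes. Its probe set 1417450_a_at read 4.78, 3.84 and 1.19 in adult in vivo MII arrays and 1.10 and 6.88 in adult in vitro MII arrays, against 11.63 and 12.00 in GV arrays. The MII arrays of younger females also lay far below the GV arrays, at 4.16, 4.05 and 4.05 in d20 in vitro, 5.03 and 3.34 in d26 in vivo, and 4.06, 5.30 and 5.13 in d26 in vitro oocytes. No MII array reached the GV range. As deposited, the intensity was between 2.07 and 34.3 in the 13 MII arrays, against 5305 and 5827 in the GV arrays.

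The Tacc3 difference on 1417450_a_at was -8.54 (SE 1.29, adjusted p = 0.000235) in vivo and -7.82 (SE 1.41, adjusted p = 0.000848) in vitro, both from limma. Some MII values were under the filter level. With values under that level raised to it, the differences were -7.91 and -6.84. In the in vitro comparison the estimate was -4.91 without adult in vitro replicate 1 and -10.71 without replicate 2, each resting on 1 adult in vitro array with a spread assumed from the other groups.

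The second tested Tacc3 probe set, 1455834_x_at, is of a class in which some oligonucleotides also match other transcripts. It read -0.24, 4.17 and -0.17 in adult in vivo MII arrays and -0.17 and 1.04 in adult in vitro MII arrays, against 7.38 and 6.37 in GV arrays. The groups did not overlap, as for 1417450_a_at. Its mean over all arrays was 3.08, just past the filter level of 3.07, and its mean over the 13 MII arrays was 2.49, so it was tested only because it was high in GV oocytes. Its difference was -5.62 (SE 1.26, adjusted p = 0.00367) in vivo and -6.44 (SE 1.37, adjusted p = 0.00266) in vitro. With values raised to the filter level these became -3.43 and -3.80, which moves them by over 1.5 times. The third, 1436872_at, was designed on the same transcript record as 1455834_x_at and lay under the filter. Its values were 1.43, 0.92 and 2.21 in adult in vivo MII arrays and 4.20 and 2.69 in adult in vitro MII arrays, against 5.18 and 5.01 in GV arrays. When every probe set was tested, it fell by 3.58 in vivo (SE 0.97, adjusted p = 0.0174), while its in vitro difference of -1.65 (SE 1.06) had an adjusted p of 0.393. All its adult in vivo values were under the filter level, so the size of that difference is not exact, and with values raised to the level, a setting chosen after seeing the data, it was -2.03. All 3 Tacc3 probe sets were lower in every adult MII array than in either GV array. Of all tested probe sets, 22.9% were so for the in vivo arrays and 29.8% for the in vitro arrays. As 1455834_x_at was tested only through its GV values and 1436872_at lay under the filter, neither adds support to 1417450_a_at.

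Pcnt encodes pericentrin, the large coiled-coil scaffold that holds gamma-tubulin complexes in the organizing centres. Its probe set 1433873_s_at read 8.51, 9.20 and 8.92 in adult in vivo MII arrays and 8.68 and 7.97 in adult in vitro MII arrays, against 9.88 and 10.18 in GV arrays. All 5 adult MII arrays lay below both GV arrays. The difference was -1.15 in vivo (SE 0.32, adjusted p = 0.0149), or 2.23-fold lower, and -1.71 in vitro (SE 0.35, adjusted p = 0.00214), or 3.27-fold lower. The in vivo call was lost without GV replicate 1 (-1.33, adjusted p = 0.0516) and without GV replicate 2 (-1.03, adjusted p = 0.145). It was also lost with each array scaled to 1 median (-1.46, adjusted p = 0.057) and on values as deposited (-2.23, adjusted p = 0.131). The in vitro call held in all 24 alternatives.

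The other Pcnt probe set, 1454749_at, was designed on the same transcript record. It read 7.10, 8.21 and 8.34 in adult in vivo MII arrays and 7.32 and 3.33 in adult in vitro MII arrays, against 8.67 and 9.88 in GV arrays. The adult MII arrays were again below both GV arrays, and the dim adult in vitro array was far below the rest. The in vitro difference of -3.95 passed (SE 1.01, adjusted p = 0.00847), and the in vivo difference of -1.39 did not (SE 0.92, adjusted p = 0.316). The in vitro estimate was -1.94 (adjusted p = 0.144) without the dim adult in vitro replicate 2 and -5.95 without replicate 1, each resting on 1 adult in vitro array. It was -3.33 (adjusted p = 0.0884) without GV replicate 2, and -3.84 (adjusted p = 0.0807) when only the arrays of the compared groups were fitted.

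**Figure D2:**
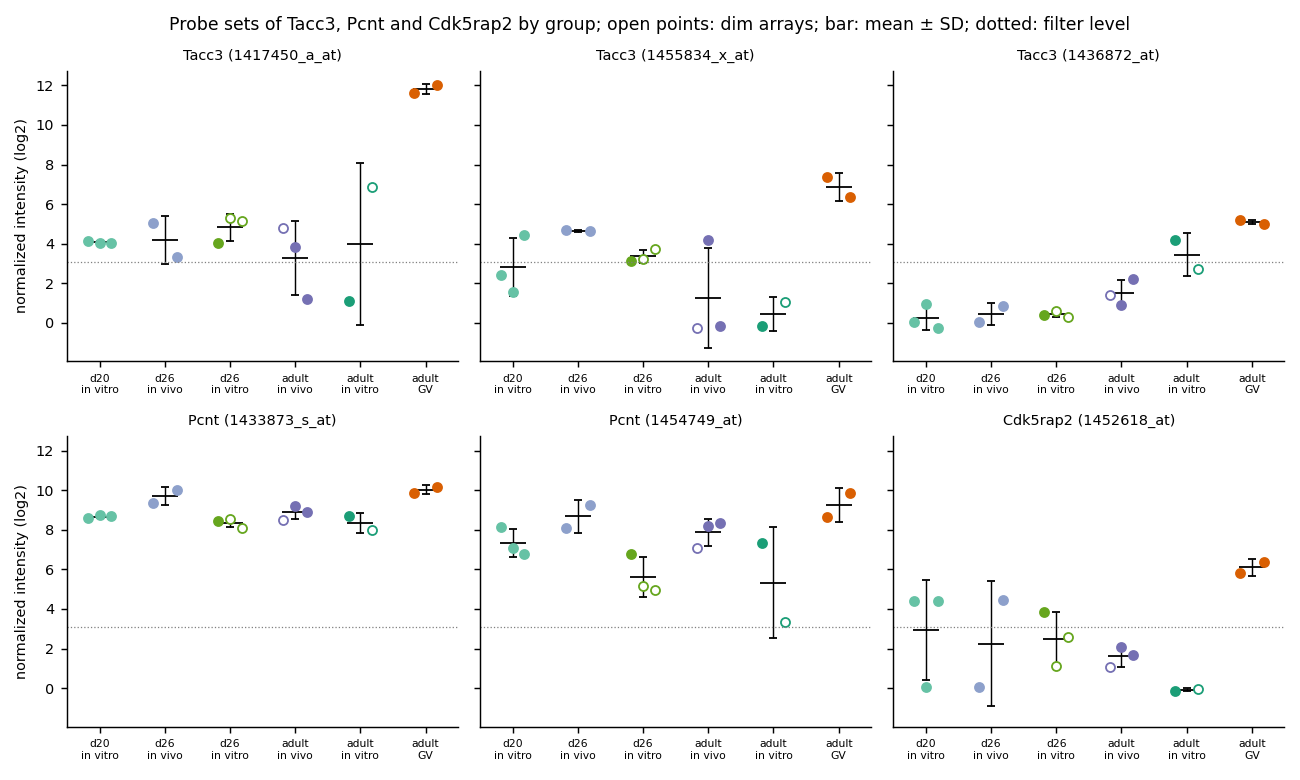
Normalized intensity (log2) of the 3 probe sets of Tacc3, the 2 of Pcnt and 1 of Cdk5rap2 in each array, by group. Open points are dim arrays, bars are the mean ± SD and the dotted line is the filter level. The Cdk5rap2 panel is its probe set with the highest GV mean, which lay under the filter. In each panel both GV arrays lie above all 5 adult MII arrays, which for Cdk5rap2 the choice by GV level favours. The only tested Cdk5rap2 probe set, not shown, had overlapping groups.

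Cdk5rap2, a second scaffold of the organizing centres, gave different values by probe set. The only tested one, 1447103_at, read 4.09, 3.00 and 4.67 in adult in vivo MII arrays and 3.65 and 4.73 in adult in vitro MII arrays, against 4.28 and 4.55 in GV arrays. Its groups overlapped, with differences of -0.50 in vivo (SE 1.03, adjusted p = 0.792) and -0.23 in vitro (SE 1.13, adjusted p = 0.91). The probe set 1452618_at lay under the filter because most MII values were low. It read 1.05, 2.10 and 1.68 in adult in vivo MII arrays and -0.13 and -0.03 in adult in vitro MII arrays, against 5.81 and 6.39 in GV arrays. When every probe set was tested, it fell by 4.49 in vivo (SE 1.42, adjusted p = 0.0432) and fell by 6.18 in vitro (SE 1.55, adjusted p = 0.0107). All 5 adult MII values were under the filter level, so these sizes are not exact and do not order the MII groups. With values raised to the level, the setting chosen after seeing the data, the difference was -3.03 in both comparisons. In younger females this probe set was high in some arrays only, with 4.39, 0.05 and 4.39 in d20 in vitro oocytes, 0.03 and 4.47 in d26 in vivo oocytes, and 3.84, 1.11 and 2.56 in d26 in vitro oocytes. The third, 1443976_at, also under the filter, read -0.28 to 4.36 over the 15 arrays and did not pass in either comparison. With no filter, 5 of all 24 probe sets were lower in each comparison, where 6.03% of 45037 were called lower in vivo and 6.09% in vitro, and this count includes probe sets whose MII values were under the filter level.

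Tubg1 encodes the main gamma-tubulin. It read 5.82, 6.91 and 6.76 in adult in vivo MII arrays and 7.31 and 5.61 in adult in vitro MII arrays, against 6.01 and 6.70 in GV arrays. The GV values lay inside the MII range, and the differences were 0.15 in vivo (SE 0.91, 95% interval -1.80 to 2.09) and 0.11 in vitro (SE 1.00, interval -2.02 to 2.24). These intervals leave room for a change of either sign.

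Plk1 and Aurka encode kinases that mature the organizing centres and drive spindle assembly. Plk1 read 2.54, 8.01 and 6.60 in adult in vivo MII arrays and 5.64 and 5.83 in adult in vitro MII arrays, against 7.73 and 9.56 in GV arrays. Its differences were -2.93 in vivo (SE 1.25, adjusted p = 0.104) and -2.91 in vitro (SE 1.37, adjusted p = 0.139). The in vivo groups overlapped through replicate 2, and the in vitro groups did not overlap. Without adult in vivo replicate 2 the in vivo difference was -4.08 and passed (adjusted p = 0.0223), and without the dim replicate 1, which read 2.54, it was -1.34 and did not (adjusted p = 0.351). Without the 4 dim arrays the in vivo difference was -1.32 (adjusted p = 0.189), and the in vitro one, resting on 1 adult in vitro array, was -3.07. With both adult in vitro arrays kept, the in vitro difference passed in limma on values as deposited (-5.25, adjusted p = 0.0361). It also passed with the compared arrays alone (-2.66, adjusted p = 0.0245) and without adult in vivo replicate 1 (-2.93, adjusted p = 0.0273). With median scaling it did not (-3.84, adjusted p = 0.0623). Aurka (1424511_at) read 6.53, 9.94 and 8.56 in adult in vivo MII arrays and 7.71 and 5.43 in adult in vitro MII arrays, against 8.83 and 9.57 in GV arrays. Only the in vitro arrays stayed below both GV arrays. The difference was -0.86 in vivo (SE 0.98, adjusted p = 0.596) and -2.63 in vitro (SE 1.07, adjusted p = 0.0841), and the in vitro value passed in 4 alternatives. The second Aurka probe set, 1440129_at, lay under the filter, read 0.46 to 3.29 over the 15 arrays and did not pass when every probe set was tested.

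Ckap5 encodes chTOG, the polymerase that TACC3 recruits. Its tested probe set 1437349_at read 6.45, 9.05 and 8.36 in adult in vivo MII arrays and 6.90 and 5.25 in adult in vitro MII arrays, against 6.48 and 6.15 in GV arrays. The difference was 1.63 in vivo (SE 0.70, adjusted p = 0.104) and -0.24 in vitro (SE 0.77, adjusted p = 0.858). With each array scaled to 1 median the in vivo difference was 0.49, and on values as deposited it was -0.28, and neither passed. The lowest in vivo value came from the dim replicate 1. Without that array the in vivo difference was 2.39 and passed (adjusted p = 0.00872), and without all 4 dim arrays it was 2.40 (adjusted p = 0.00218). The same transcript read by 1430647_at, under the filter, had 0.76, 4.07 and 4.04 in adult in vivo MII arrays and 4.05 and 4.94 in adult in vitro MII arrays, against 0.09 and 2.35 in GV arrays. Neither of its differences passed when every probe set was tested (1.74, adjusted p = 0.553 in vivo, and 3.27, adjusted p = 0.201 in vitro). The third, 1442271_at, read 0.18 to 2.08 over the 15 arrays and did not pass either.

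Tpx2, which activates AURKA and nucleates microtubules near chromosomes, had a narrow spread on its leading probe set 1428104_at. It read 9.55, 9.72 and 10.08 in adult in vivo MII arrays and 9.79 and 8.54 in adult in vitro MII arrays, against 9.30 and 9.80 in GV arrays. The difference was 0.23 in vivo, with a 95% interval from -0.59 to 1.05, and -0.39 in vitro, with an interval from -1.28 to 0.51. The other 3 Tpx2 probe sets differed by -0.46 to -0.13 in vivo and by -0.41 to -0.14 in vitro, and none passed.

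Numa1, which with dynein focuses microtubule ends at poles, read 7.60, 9.39 and 8.59 on 1423975_s_at in adult in vivo MII arrays and 8.30 and 7.64 in adult in vitro MII arrays, against 7.60 and 7.65 in GV arrays. The differences of 0.90 in vivo (SE 0.70, adjusted p = 0.407) and 0.34 in vitro (SE 0.77, adjusted p = 0.791) did not pass. With each array scaled to 1 median the in vivo difference was -0.07, and on values as deposited it was -0.84, and neither passed. Without the 4 dim arrays the in vivo difference was 1.33 and passed (adjusted p = 0.0286). The other Numa1 probe sets did not pass and gave -0.59 and 0.21 in vivo, and -1.42 and -1.68 in vitro. One of them, 1441090_at, read -0.48 in adult in vitro replicate 1 and 4.98 in replicate 2. Without replicate 2 its in vitro difference was -4.43 (adjusted p = 0.00712), which rests on replicate 1 alone, a value under the filter level with a spread assumed from the other groups.

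Prc1, the midzone bundler, read 11.25, 12.83 and 12.73 on 1423775_s_at in adult in vivo MII arrays and 11.98 and 10.77 in adult in vitro MII arrays, against 12.27 and 12.14 in GV arrays. The difference was 0.07 in vivo (SE 0.50, adjusted p = 0.947) and -0.82 in vitro (SE 0.55, adjusted p = 0.307), and neither passed. Its second probe set, designed on the same record, differed by -0.36 in vivo and by -1.71 in vitro (SE 0.88, adjusted p = 0.175). Both in vitro arrays were below both GV arrays on each Prc1 probe set.

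In adult in vivo oocytes, 14 of the 18 tested member probe sets were lower in the dim replicate 1 than in both brighter arrays, where 42.7% of all tested probe sets were. The median difference between the dim array and the brighter ones was -1.46 for the 18, beside -0.03 over all tested probe sets, after quantile normalization. It was -4.77 for Plk1 and 2.27 for Tacc3 1417450_a_at. The part of the dim arrays in the members' differences was tested only by leaving them out.

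**Figure D3:**
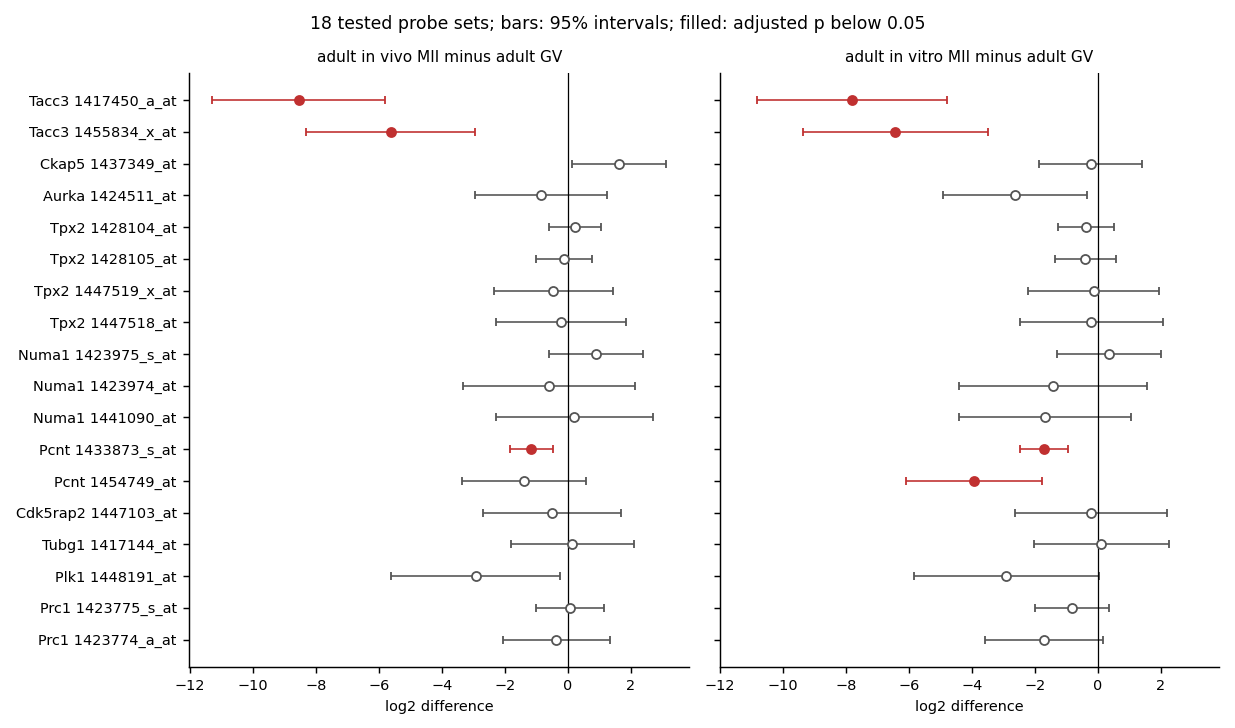
Difference in log2 intensity of each tested probe set between adult MII and adult GV oocytes, in vivo matured at left and in vitro matured at right. Points are differences, bars are 95% intervals and filled points passed at an adjusted p below 0.05; both Tacc3 probe sets lie between -8.54 and -5.62, left of every other gene.

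Scaling bears on the sign of small differences. Over all tested probe sets the median difference was 0.24 in vivo and 0.13 in vitro after quantile normalization, -0.21 and -0.53 with each array scaled to 1 median, and -0.98 and -1.94 on values as deposited. Relative to these medians, Tacc3 1417450_a_at stood at -8.78 in vivo after quantile normalization and at -8.13 under the other scalings. In vitro it stood at -7.95 and -7.42. Pcnt 1433873_s_at stood at -1.39 and -1.25 in vivo and at -1.84 and -1.83 in vitro. For these probe sets the direction was the same under every scaling. Median scaling shifts each array by 1 constant, so relative to these medians it equals the values as deposited by construction. Those settings are not separate checks here. Other leading probe sets changed sign in vivo between quantile normalization and values as deposited. Ckap5 went from 1.63 to -0.28, Numa1 from 0.90 to -0.84 and Tubg1 from 0.15 to -1.73. Tpx2 went from 0.23 to -0.91 and Prc1 from 0.07 to -0.49. In vitro, Numa1 went from 0.34 to -2.37 and Tubg1 from 0.11 to -2.67.

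**Figure D4:**
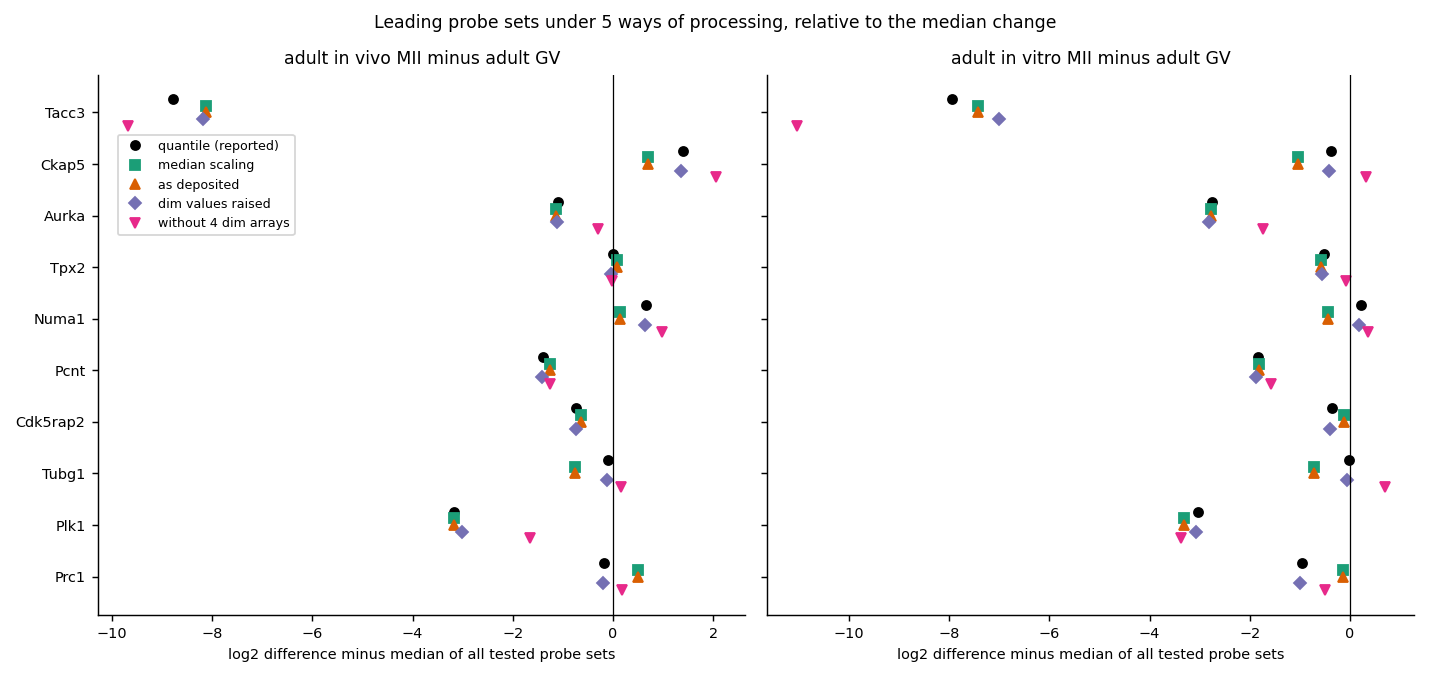
Difference in log2 intensity between adult MII and adult GV oocytes of the leading probe sets, minus the median difference of all tested probe sets. Markers are quantile normalization, scaling of each array to 1 median, values as deposited, low values raised to the filter level, and no dim arrays. The subtracted median ran from 0.34 to -0.98 in vivo and from 0.30 to -1.94 in vitro. Tacc3 stays lowest under each. The markers for median scaling and for values as deposited coincide by construction.

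Maturation in vivo and in vitro was compared at the same age, and no member passed at either age. In adults, 0 of 18 passed in limma, where 0.00444% of all tested probe sets were called, and 2 had an unadjusted p below 0.05, both higher in vivo, where the share over all was 5.23%. They were Pcnt 1454749_at (2.55, SE 0.92, adjusted p = 0.544) and Ckap5 1437349_at (1.87, SE 0.70, adjusted p = 0.558). Without adult in vitro replicate 1, which leaves only the dim replicate 2 in that group, the Pcnt difference was 4.56 and passed (adjusted p = 0.0158). The median of the 18 was 0.59, beside 0.03 over all.

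At d26, 0 of 18 passed in limma, where 0.04% of all tested probe sets were called, and the 2 with an unadjusted p below 0.05 were both of Pcnt, where 4.12% of all were higher at that level. Pcnt 1433873_s_at read 9.37 and 10.02 in d26 in vivo arrays, against 8.46, 8.54 and 8.10 in d26 in vitro arrays. Its groups did not overlap, and the difference was 1.33 (SE 0.32, unadjusted p = 0.000968, adjusted p = 0.236). Pcnt 1454749_at read 8.10 and 9.28 in d26 in vivo arrays, against 6.75, 5.15 and 4.95 in d26 in vitro arrays. That difference was 3.07 (SE 0.92, adjusted p = 0.416), and the 2 lowest values were from the dim arrays. In all, 5 of the 18 had no overlap and were higher in vivo, where 11.1% of all tested probe sets did so. The difference between the maturation effects at d26 and in adults was tested as an interaction, with 0 of 18 passing in limma, 0 at an unadjusted p below 0.05, and 3.73% of all tested probe sets at that level.

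Among in vitro matured oocytes, adults were compared with d20 females, and most members were lower in adults without passing. The limma fit called 0 of 18, where 0.0222% of all tested probe sets were called. At an unadjusted p below 0.05, 7 were lower and 1 was higher in adults, where 9.96% and 7.68% of all were. The differences of 17 of the 18 were below 0, where 52.9% of all were, and 11 had every adult array below every d20 array, where 21.9% of all did. The median of the 18 was -1.40, beside -0.08 over all. One of the 2 adult in vitro arrays is dim and no d20 array is, and 13 of the 18 were lower in that dim array than in its partner, where 53% of all tested probe sets were.

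The Ckap5 probe set 1437349_at had the lowest adjusted p of the members in that comparison. It read 6.90 and 5.25 in adult in vitro arrays, against 8.63, 7.67 and 8.62 in d20 in vitro arrays, a difference of -2.23 (SE 0.70, adjusted p = 0.177). Aurka read 7.71 and 5.43 in adult in vitro arrays, against 9.45, 8.28 and 9.46 in d20 in vitro arrays, with a difference of -2.49 (SE 0.98, adjusted p = 0.227). Prc1 1423775_s_at differed by -1.27 (adjusted p = 0.229) and Tpx2 1428104_at by -1.05 (adjusted p = 0.211). The groups of these 4 probe sets did not overlap. The member that was higher was Cdk5rap2 1447103_at, by 2.41 (SE 1.03, adjusted p = 0.253). Without adult in vitro replicate 1, with only the dim replicate 2 left in that group, the Tpx2 difference of -1.67 and that of Pcnt 1454749_at, -4.03, passed (adjusted p = 0.0451 and 0.0195).

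Adults against d26 in vitro gave 0 of 18 calls in limma, where 0.00444% of all tested probe sets were called, and 2 lower at an unadjusted p below 0.05, where 3.98% of all were. They were Tacc3 1455834_x_at (-2.93, adjusted p = 0.654) and Tpx2 1428104_at (-0.85, adjusted p = 0.677). Tacc3 1455834_x_at was tested only through its GV values and lends this count no support. Both its adult in vitro values, -0.17 and 1.04, were under the filter level. For d26 against d20 in vitro, limma called 0 of 18 and 0 of all tested probe sets (0%). At an unadjusted p below 0.05 it found 0 members and 11.5% of all. In the d26 in vitro group, 9 of the 18 were lower in both dim arrays than in the brighter one, where 34% of all were.

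**Figure D5:**
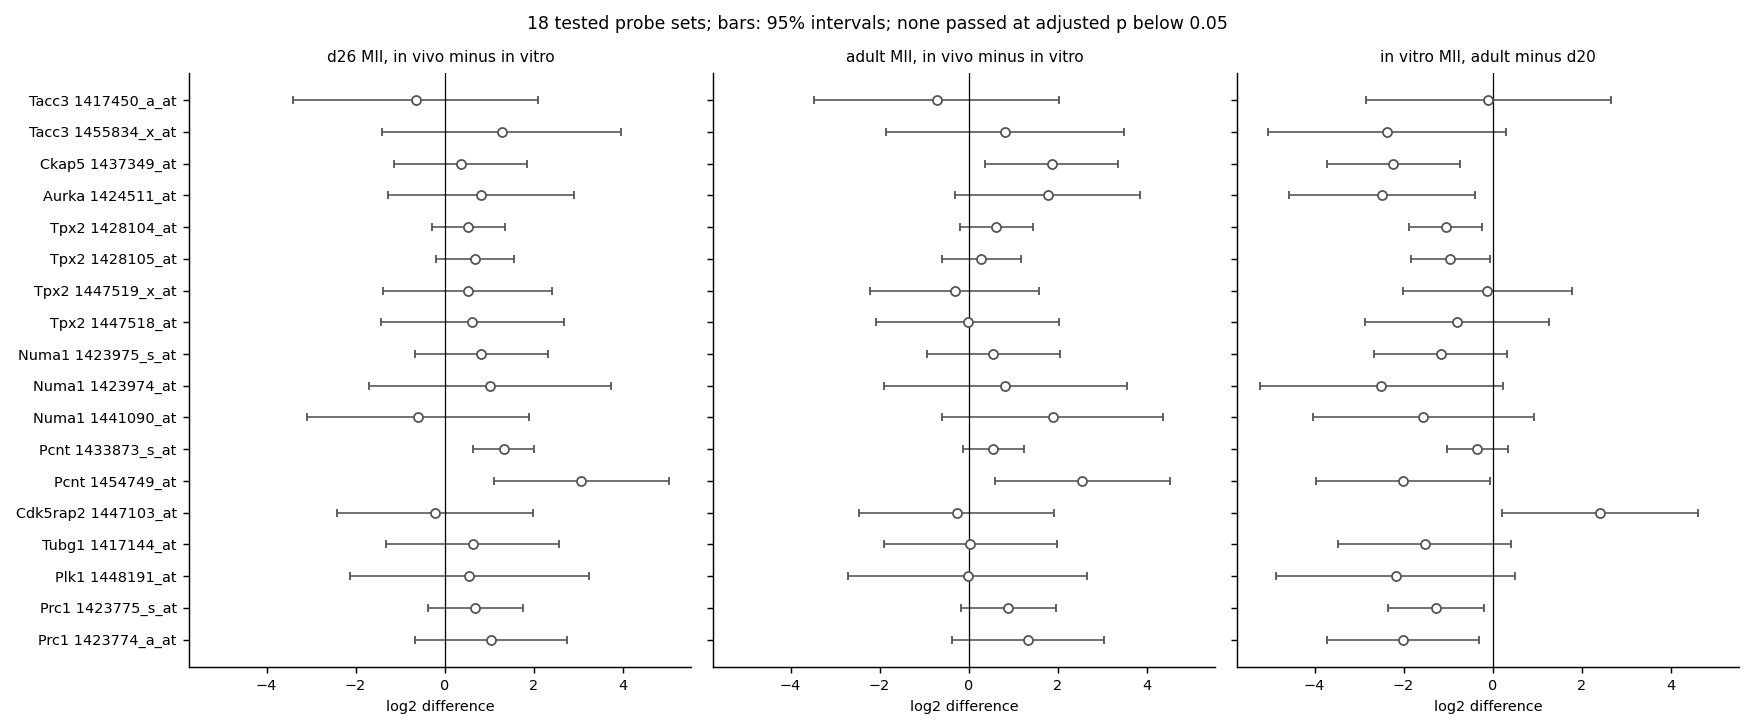
Difference in log2 intensity of each tested probe set for d26 in vivo minus in vitro, adult in vivo minus in vitro, and in vitro adult minus d20. Points are differences and bars are 95% intervals on a shared axis; none passed at an adjusted p below 0.05, and 17 of 18 points lie below 0 in the panel of adult minus d20.

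Other genes of spindle assembly were described from 8 lists of 78 genes, each gene by its tested probe set with the highest mean, which 73 had. In adult in vivo MII against GV oocytes 13 were higher and 14 lower, where 18.3% of 12028 genes were higher and 12.3% lower. In adult in vitro MII against GV oocytes 15 were higher and 18 lower, where 18.4% were higher and 12.9% lower. The median difference was -0.17 in vivo and -0.40 in vitro, beside 0.26 and 0.13 over all genes. The list genes were fitted after quantile normalization only, so whether their rises hold under another scaling was not tested. Over all tested probe sets, higher calls in vivo were 3542, against 1205 with median scaling and 23 as deposited. In vitro they were 3607, against 1315 and 11.

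The other subunits of the gamma-tubulin ring complex moved in both directions, with 3 higher and 1 lower of 7 in each comparison. Tubgcp4, a subunit of the ring, rose by 2.63 in vivo (adjusted p = 0.0333) and by 3.37 in vitro (adjusted p = 0.0141). Tubgcp2, a core subunit, fell by 3.73 in vivo (adjusted p = 0.0118), and Mzt2, a small ring protein, fell by 3.60 in vitro (adjusted p = 0.0241). Of augmin, the complex that branches microtubules off existing ones, 3 of 7 fell in vivo and 2 in vitro, and 0 rose. Haus1 averaged 3.75 in adult in vivo and 3.49 in adult in vitro MII oocytes, against 8.84 in GV oocytes. It fell by 5.10 (SE 0.93, adjusted p = 0.000892) and fell by 5.35 (SE 1.02, adjusted p = 0.0012).

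Of the 13 tested scaffold genes, 4 rose and 2 fell in vivo, and 4 rose and 0 fell in vitro. Cep192, which recruits PLK1 and AURKA to centrosomes, rose by 1.84 in vivo (adjusted p = 0.00216) and by 2.02 in vitro (adjusted p = 0.00207). Kiz, a spindle pole protein, rose by 2.07 in vitro (adjusted p = 0.00817), and Cep63, of the centriole, fell by 3.15 in vivo (adjusted p = 0.0236).

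Of 10 genes of the Ran pathway, 4 fell in each comparison, and 1 rose in vitro. Nusap1, a microtubule bundler released by Ran, averaged 8.77 in adult in vivo and 7.92 in adult in vitro MII oocytes, against 12.10 in GV oocytes. Kpna2, the importin alpha that holds TPX2 inactive, averaged 10.52 and 9.18 in the same MII groups, against 13.31 in GV oocytes. Nusap1 fell by 3.32 in vivo (adjusted p = 1.21e-05) and fell by 4.18 in vitro (adjusted p = 5.85e-06). Kpna2 fell by 2.79 (adjusted p = 1.75e-05) and fell by 4.13 (adjusted p = 2.83e-06). Kpna2 was also the 1 list gene called between maturation in vivo and in vitro at d26, with means of 11.02 in vivo and 9.03 in vitro (difference 1.99, SE 0.29, adjusted p = 0.0235).

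Among 10 relatives of TACC3 and plus-end proteins, 2 rose and 1 fell in vivo, and 3 rose and 3 fell in vitro. Clasp2, which stabilizes microtubule ends, rose by 1.71 in vivo (adjusted p = 0.0105) and by 2.19 in vitro (adjusted p = 0.00387). Clip1, a plus-end protein, fell by 1.47 in vivo (adjusted p = 0.00144), and Tacc2, a paralog of Tacc3, fell by 2.33 in vitro (adjusted p = 0.0245). Of 6 genes of the Aurora kinases and the chromosomal passenger complex, 2 fell in each comparison. They were Birc5, the survivin subunit (-2.88 in vivo and -2.80 in vitro), and Incenp, the scaffold (-1.07 and -1.21). Aurkc, the Aurora kinase of germ cells, differed by 0.04 in vivo (adjusted p = 0.977).

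Of 10 partners of dynein and NUMA1, 1 fell in vivo and 4 in vitro. Ndel1, a dynein regulator, fell by 3.64 in vivo (adjusted p = 4.53e-06) and fell by 3.52 in vitro (adjusted p = 1.27e-05). Dctn1, the large dynactin subunit, fell by 4.59 in vitro (adjusted p = 0.00534). Of 10 midzone and pole motors and partners, 4 rose and 0 fell in vivo, and 4 rose and 2 fell in vitro. Racgap1, of the centralspindlin complex that works with PRC1 at the midzone, rose by 1.85 in vivo (adjusted p = 0.000504). Kif18a, a motor that limits microtubule length, rose by 1.74 in vivo (adjusted p = 0.00184). Kifc1, a minus-end motor, fell by 2.39 in vitro (adjusted p = 0.0343), and Kif4, a midzone motor, fell by 2.29 in vitro (adjusted p = 0.0186).

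Genes whose 6 group means, each centred on the gene's own mean, were most like those of Tacc3 1417450_a_at were Copb2, Polr3a, Ppil3, Timm17a and Fdft1. The root mean square difference from Tacc3 was 0.38 for Copb2 and 0.64 for Fdft1, beside a median of 3.05 over 12027 genes. Copb2 averaged 3.23 in adult in vivo and 4.02 in adult in vitro MII oocytes, against 11.17 in GV oocytes. The likeness is a description over 6 groups in which the GV group stands apart. For Plk1 the nearest gene was Zdhhc3, at 0.11, beside a median of 1.25.

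Promoters are shown for the 2 genes that were lower in MII oocytes, Tacc3 and Pcnt, beside Ckap5 and Prc1, which were not called. The RefSeq promoter table, of build GRCm38.p6, held 8 of the 10 genes. Each line gives the 100 bases before the annotated start, 5′ to 3′ on the gene's strand, with matches to TTTGAA (the core of the cell cycle genes homology region, CHR) and to CCAAT on either strand in capitals. The stretches are chr5:33658028-33658127 (plus strand) for Tacc3, chr10:76442913-76443012 (minus strand) for Pcnt, chr2:91526662-91526761 (plus strand) for Ckap5 and chr7:80294376-80294475 (plus strand) for Prc1.
Tacc3: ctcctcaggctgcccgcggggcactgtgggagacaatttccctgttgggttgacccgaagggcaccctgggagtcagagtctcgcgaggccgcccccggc
Pcnt: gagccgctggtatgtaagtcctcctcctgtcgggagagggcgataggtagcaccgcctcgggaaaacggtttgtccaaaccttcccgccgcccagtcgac
Ckap5: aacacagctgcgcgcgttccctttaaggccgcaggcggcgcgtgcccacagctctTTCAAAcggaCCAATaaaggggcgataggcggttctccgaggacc
Prc1: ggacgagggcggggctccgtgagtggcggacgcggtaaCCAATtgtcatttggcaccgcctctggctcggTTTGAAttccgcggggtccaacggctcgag
The CHR core is bound by cell cycle complexes at promoters of genes used in mitosis. In the full windows of 250 bases before to 50 after the start, 5 of the 8 genes held it (Ckap5, Aurka, Cdk5rap2, Plk1 and Prc1), as did 17.9% of 32851 windows of that length. Tacc3, Pcnt and Numa1 did not hold it. CCAAT was in 5 of the 8 (Ckap5, Aurka, Pcnt, Plk1 and Prc1) and in 37.4% of all windows. The Pcnt match lies after the start, at position 38, outside the stretch shown. So do the CHR matches of Aurka, at 33, and of Plk1, at 31. Aurka, Plk1, Numa1 and Cdk5rap2, which like Ckap5 and Prc1 had no tested probe set called, are not shown. Of these, Numa1 held neither motif, while Ckap5 and Prc1 each hold both. The lines are a choice among the genes and do not relate motifs to calls. Prc1 has more than 1 annotated start, and the downstream one is shown. A match is a description of the letters and not a site.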

How the data were processed

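The deposited values are MAS5 intensities of 45101 probe sets on 15 arrays, made by the authors per the submitters' processing notes, with no version, scaling target or detection call given in the sources used here. Array medians of the deposited intensity ran from 5.08 to 25.3. After removing 64 control probe sets, log2 values were quantile normalized, and the upper 50% by mean over all arrays (log2 of at least 3.07) were tested with limma 3.58.1 in R 4.3.3. The fit had 6 group coefficients, an intensity trend, 9 residual degrees of freedom and Benjamini-Hochberg adjustment within each comparison over 22519 probe sets. MAS5 sets no floor, so low signals are noisy on a log scale, and the number of arrays limits the precision. No 2 arrays were duplicates (0.00222% identical values at most).

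Symbols are those of the platform's annotation (1 symbol for 34958 probe sets, several for 932, none for 9211), and 34754 were updated through gene identifiers to the RefSeq table of GRCm38.p6. Members and gene lists were chosen with earlier results of these data known. By name appear the members, in each list and GV comparison at most the 2 called genes with the largest change and 1 with the largest p-value, and the 5 genes most like Tacc3 and Plk1. Alternatives were values as deposited, median scaling, no filter, the upper 30%, low values raised to the filter level, the compared arrays alone, no trend, array weights, no dim arrays (under 4000 probe sets over an intensity of 200), and leaving out each array. The fit was tested on simulated data.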

Additional observations from a re-analysis of the deposited data

How the results depend on the processing

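Counts of member calls, 3 in the in vivo MII against GV comparison and 4 in the in vitro one, changed with several settings. In vivo the count was 5 with no filter, 6 with array weights and 5 without the 4 dim arrays. In vitro it was 7 on values as deposited and 7 without the dim arrays. Adult against d20 in vitro had 1 member call without the dim arrays (Numa1 1441090_at, resting on 1 adult in vitro array under the filter level) and 0 in each setting that kept all 15. Leaving out each array gave 1 to 4 calls in vivo, 2 to 6 in vitro, 0 to 1 for adult in vivo against in vitro and 0 to 2 for adult against d20. The in vivo count of 1 came without either GV array, and the in vitro count of 2 without GV replicate 2. Tacc3 1417450_a_at was called in all 24 alternatives of both comparisons, with a highest adjusted p of 0.00556 in vivo and 0.0302 in vitro. Tacc3 1455834_x_at, tested only through its GV values, was called in the 15 in which it passed the filter. Tpx2 1447518_at turned from -0.21 to 1.45 (adjusted p = 0.0471) in vitro without the dim arrays, where that group has 1 array with a spread assumed to be that of the others; the cause was not tested. With array weights Plk1 (-1.96), Ckap5 (2.09) and Numa1 (1.10) also passed in vivo. Of 3351 single differences under the alternatives, 242 changed sign with neither value called.

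Over all tested probe sets, calls in vivo were 6037, against 3504 as deposited, 10291 with array weights, 3790 without GV replicate 1 and 3298 without GV replicate 2. In vitro they were 6248, against 4136 and 3767 without those GV arrays. The higher and lower calls split 3542 and 2495 in vivo and 3607 and 2641 in vitro. With median scaling they split 1205 and 3876 in vivo and 1315 and 4468 in vitro, and as deposited 23 and 3481 in vivo and 11 and 6224 in vitro. Without the dim arrays, the comparisons with 0 to 9 calls had 33 to 325, except the interaction, with 0. No paired analysis was possible because the labels give the groups no shared replicate numbers.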
